A study of Homo sapiens with 4 samples.

Results

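Cultures labelled HT-29 and exposed to cyclopamine for 48 h were compared with the control culture hybridised on the same chip, 1 array per side, over every gene that could be measured on either array. The members of the comparison were probes with a detection p-value under 0.01 on at least 1 of the 2 arrays. That p-value is the share of negative control signal expected to be as bright as the probe. Of 47227 probes, 14815 (31.37%) met this rule, 12546 of them on both arrays, and they represented 8999 of 20044 genes with a probe. HT-29 is an established line of adherent epithelial cells from a human colorectal adenocarcinoma. The treated culture received cyclopamine at 20 µM for 48 h. The labels of its control conflict: the title and the treatment field give the vehicle DMSO, whereas tomatidine stands in the source name. Tomatidine is another steroidal alkaloid, close to cyclopamine in structure. It is called the chip 1 control here. If it was tomatidine, responses that both alkaloids share would not appear as a difference. The series holds 4 arrays on 2 chips, and the other chip carried a DMSO control and cells given GANT61 at 20 µM for 48 h. No label names a passage, a dish or a second culture, and with 1 array per group no difference below has a replicate check or a p-value.

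Cyclopamine is a plant steroidal alkaloid that binds Smoothened, the membrane protein that relays the Hedgehog signal. When a Hedgehog ligand occupies the receptor Patched, Smoothened is released from inhibition, acts in the primary cilium, and lets GLI transcription factors activate target genes. In the adult colon the ligands come mostly from epithelium and act on the surrounding stroma. GANT61, a synthetic compound, is described as blocking the GLI factors themselves.

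The chip 1 cultures lacked most markers of the labelled line. On the chip 1 control array 6 of 25 colonocyte and epithelial markers exceeded background, and 6 on the cyclopamine array. On chip 2 the DMSO array had 23 and the GANT61 array 21. EPCAM, the epithelial adhesion molecule, had deposited intensities of 81.0 and 80.2 on chip 1 and 8032 and 6717 on chip 2. CDH1, the epithelial cadherin, was below background on both chip 1 arrays (57.4 with cyclopamine), and KRT20, VIL1, CDX2 and LGALS4 were below it as well. The 4 brightest members of the list on chip 1 were the keratin genes KRT8 and KRT18, CLDN7, a tight junction claudin, and TSPAN8, a tetraspanin. Of 18 mesenchymal markers, 10 were above background on both arrays of chip 1, led by LGALS1, VIM, CCN1 and MSN, with log2 ratios of -0.03, 0.07, 0.14 and -0.26. CDH11, FN1, SNAI1, SPARC, TAGLN, TWIST1, ZEB1 and ZEB2 were below background on both. On chip 2 the DMSO array had 7 of the 18 and the GANT61 array 6. MSN did not separate the chips, with intensities of 1090 and 757 on chip 1 and 944 and 1084 on chip 2. Of 12 leukocyte markers with a probe only CD68, a lysosomal protein of macrophages that other cells also make, was above background on chip 1. The differences below therefore describe the cells that chip 1 held, whatever their identity, and in a bulk sample fewer cells of a type and less RNA per cell cannot be told apart. Median deposited intensity was 90.2 in the control and 91.1 with cyclopamine, and 13908 and 13453 probes were above background.

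Levels are given as normalised log2 intensity, after background correction and quantile normalisation, and differences as the log2 ratio of cyclopamine over control. Most genes had ratios near 0. The median log2 ratio of the 8999 genes was -0.009, and for the 8007 genes above background on both arrays the 5th and 95th percentiles were -0.56 and 0.68. In all, 279 genes (3.10%) were at least 2-fold higher with cyclopamine, and 172 (1.91%) were lower by that factor. The higher side held 61.9% of these calls, but 34.7% under median scaling and 44.5% for the deposited log2 values, so the balance of directions depends on the scaling. At 1.5-fold the counts were 882 (9.80%) and 704 (7.82%). Among genes above background on both arrays the balance leaned further to the higher side, with 130 at least 2-fold higher and 41 lower, 33 against 4 at 3-fold, and 11 against 1 at 4-fold. The rest of the calls rested on 1 measured side: 149 of the higher genes were above background with cyclopamine only and 131 of the lower genes in the control only. For such genes a lower bound of the fold was set with the lowest detected level of the dim array, and 29 and 16 of them kept at least 2-fold by this bound. Probes with no gene symbol were more often higher, 194 of 3151 (6.16%) against 538 of 14815 probes in all (3.63%).

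**Figure D1:**
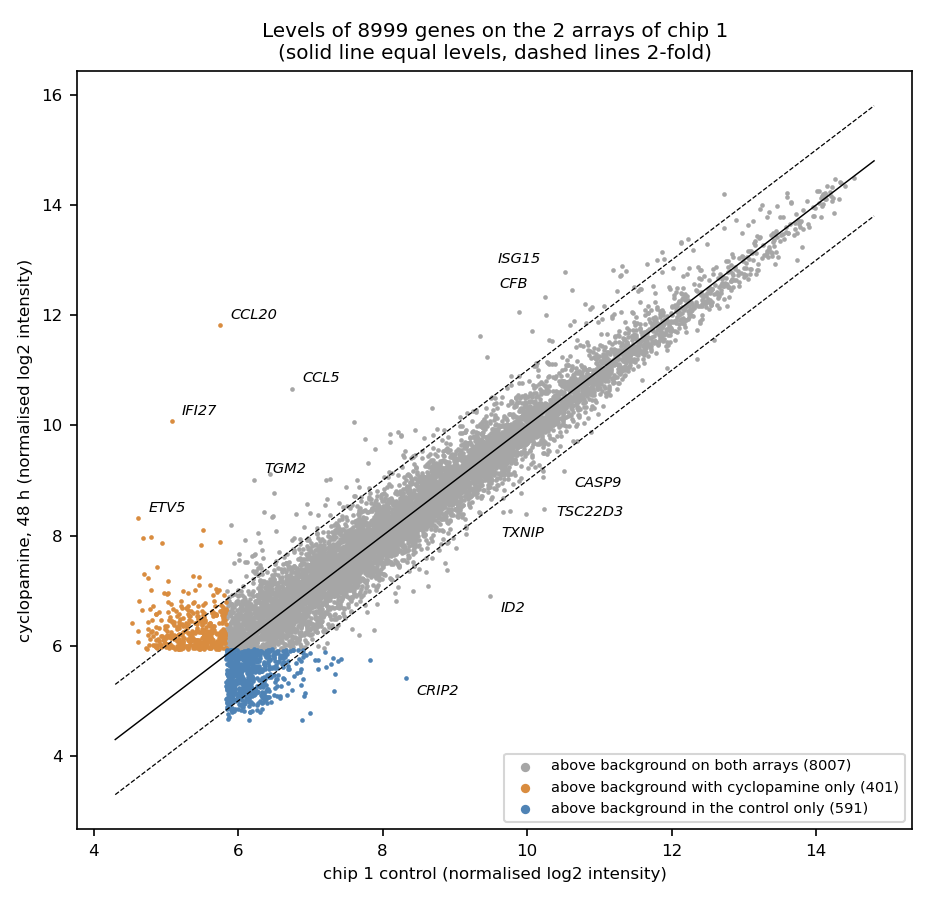
Normalised log2 intensity of 8999 genes in the chip 1 control (horizontal axis) and with cyclopamine (vertical axis), 1 array each. Grey points were above background on both arrays, orange points with cyclopamine only and blue points in the control only; the solid line marks equal levels and the dashed lines 2-fold. CCL20, IFI27 and CCL5 lie farthest above the line, and CRIP2 and ID2 farthest below it.

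Different probes of 1 gene gave a measure of technical spread within these 2 arrays. Over 1515 genes with exactly 2 probes above background on both arrays, the spread of 1 probe was 0.23 on the log2 scale, so 2 SD came to 0.45. It covers neither culture nor labelling. The signs of the 2 probes matched in 1111 of the 1515 genes. Of 41 such genes with a probe past 2-fold, 39 had the same sign at the other probe but only 11 had both past 2-fold. At the detection threshold the values ran together: 225 probes had their lower p-value from 0.008 to under 0.01, with an intensity of 111 to 113 on the brighter array, and 327 probes from 0.01 to under 0.012, with 110 to 112.

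A chemokine gene had the highest bound of the comparison, CCL20, and another the highest ratio on both arrays, CCL5. CCL20, which draws immature dendritic cells and memory lymphocytes through the receptor CCR6, had a deposited intensity of 109 in the control, below background, and 3466 with cyclopamine, at least 63.1-fold higher. CCL5, a chemokine for T cells and monocytes, went from a level of 6.75 to 10.67, 15.1-fold higher, and its second probe gave a log2 ratio of 4.65. CXCL8, the main neutrophil chemokine, was below background in the control at an intensity of 78.3 and reached 253, at least 4.41-fold higher, with 0.98 at its other probe. The list was not uniform. Of 27 chemokine genes with a probe, 8 could be tested, 5 of them through the treated array alone. In this and the other lists, counts and medians use the fitted ratio even where 1 array was below background, and a count is also given by the bounds where that differs. On the higher side 5 chemokines reached 1.5-fold by fitted ratio and 4 by the bound, and on the lower side none by either. Over all genes 9.80% were higher and 7.82% lower at 1.5-fold, the shares against which every list's count stands. The neutrophil chemokine CXCL2 was at least 1.63-fold higher, CXCL12 and CXCL3 had bounds of 1.10-fold and 1.07-fold, CXCL16 had a log2 ratio of 0.10, and CCL2, the monocyte chemokine, stood at 7.86 in the control and 7.48 with cyclopamine. The median log2 ratio was 1.05 with fitted values, 0.42 with bounds in their place, and 0.10 over the 3 genes above background on both arrays.

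Secreted cytokines were higher in the same sample. Of 34 cytokine and growth factor genes of inflammation with a probe, 13 could be tested, 4 of them through the cyclopamine array alone. At 1.5-fold 9 were higher (8 by the bounds) and 0 lower, against 9.80% and 7.82% of all genes. The median log2 ratio was 0.85, or 0.80 over the 9 genes above background on both arrays. IL6, the cytokine that drives acute phase protein synthesis in liver, had an intensity of 192 in the control and 479 with cyclopamine, 3.43-fold higher after normalisation. EBI3, the shared subunit of IL27 and IL35, was at least 3.98-fold higher, and IL11, a relative of IL6, at least 2.11-fold. TNFSF14, a TNF family ligand also called LIGHT, went from 8.10 to 9.70, and CD70, another member of that family, was at least 1.94-fold higher. IL32 and IL18 had log2 ratios of 1.01 and 0.85. IL15, which sustains natural killer cells, was the one tested member below 0, at -0.41. Of 26 acute phase and complement genes with a probe 8 could be tested. The filter passed 3 of them through the cyclopamine array alone, which favours a ratio above 0. All 8 had ratios above 0, and 4 were at least 1.5-fold higher, against 9.80% of all genes. Over the 5 above background on both arrays the median was 0.42. CFB, factor B of the alternative complement pathway, went from 10.25 to 12.33, 4.24-fold higher. SAA1, serum amyloid A, was at least 4.34-fold higher, and its probe may also bind the close relative SAA2. LCN2, the siderophore-binding lipocalin, was at least 1.76-fold higher, and C1S, a complement protease, had a log2 ratio of 1.08.

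Many of these genes are textbook targets of NF-kB, a family of dimeric transcription factors that IkB proteins hold in the cytoplasm until a kinase complex marks them for destruction. The pathway's own genes, several of which it induces as feedback, were described by role. Of 25 testable members, 14 reached 1.5-fold on the higher side and 1 on the lower (0 by the bounds), and the median log2 ratio was 0.79, against 9.80%, 7.82% and -0.009 over all genes. Among the subunits RELB was at least 1.95-fold higher, NFKB2 had 0.96 and NFKB1 0.85, whereas RELA, the subunit of the canonical dimer, stood at 7.50 and 7.54. RELA alone of the 4 lay within the spread of 1 probe. Of 5 tested IkB proteins 3 reached 1.5-fold on the higher side and BCL3 had 0.49. NFKBIE was higher by at least 2.55-fold, NFKBIA from 10.65 to 11.90, and NFKBIB by a log2 ratio of 0.76, while NFKBIZ, an atypical nuclear member, was at least 1.41-fold lower. Feedback enzymes and adaptors held the larger values. TNFAIP3, the ubiquitin-editing enzyme A20, was at least 3.01-fold higher, and its partner TNIP1 went from 8.45 to 9.91. TNFAIP2, an endothelial and myeloid protein induced by TNF, went from 6.27 to 8.04, ICAM1, an adhesion receptor for leukocytes, from 6.30 to 7.89, and SOD2, the mitochondrial superoxide dismutase, from 11.37 to 12.80. The kinases were less apart: IKBKE had 0.82, IKBKG 0.36, TBK1 0.30, IKBKB 0.22 and CHUK -0.13, and MAP3K14 was at least 1.26-fold lower.

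The promoters of 3 of these genes are shown because a match to the kappaB consensus, the DNA sequence that NF-kB dimers bind, lies close to the start of each. They are the 250 bases before the transcription start in RefSeq (GRCh38.p14), and capitals mark the match.
CCL20, chr2:227813592-227813841, plus strand: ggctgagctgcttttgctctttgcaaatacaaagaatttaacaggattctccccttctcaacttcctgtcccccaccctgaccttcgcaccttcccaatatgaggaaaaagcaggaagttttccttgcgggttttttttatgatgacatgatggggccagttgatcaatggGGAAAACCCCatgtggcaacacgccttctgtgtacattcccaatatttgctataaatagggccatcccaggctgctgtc
IL6, chr7:22726950-22727199, plus strand: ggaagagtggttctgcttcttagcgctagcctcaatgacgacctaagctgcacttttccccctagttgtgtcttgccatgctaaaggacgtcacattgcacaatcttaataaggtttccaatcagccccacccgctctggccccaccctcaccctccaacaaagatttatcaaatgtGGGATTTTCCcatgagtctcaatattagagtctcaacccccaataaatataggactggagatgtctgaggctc
TNFAIP3, chr6:137867009-137867258, plus strand: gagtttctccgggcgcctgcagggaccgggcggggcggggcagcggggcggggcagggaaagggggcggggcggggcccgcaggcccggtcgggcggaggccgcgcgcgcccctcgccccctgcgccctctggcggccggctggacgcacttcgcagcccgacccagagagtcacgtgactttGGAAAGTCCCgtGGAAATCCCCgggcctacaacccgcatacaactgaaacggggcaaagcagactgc
Searched on both strands, the consensus was present in this window for 9.96% of 35116 promoters in the table. Of the 20 genes with the highest ratios on both arrays, 12 had a promoter entry, and GDF15, CFB and IL6 held a match. Of the 15 genes with the highest bounds, 10 had an entry, and CCL20, EBI3 and TNFAIP3 held one. Among the 20 lowest genes 2 of 17 entries held one, ID2 and GSN. A match describes letters, not binding, and CCL5 had no entry.

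**Figure D2:**
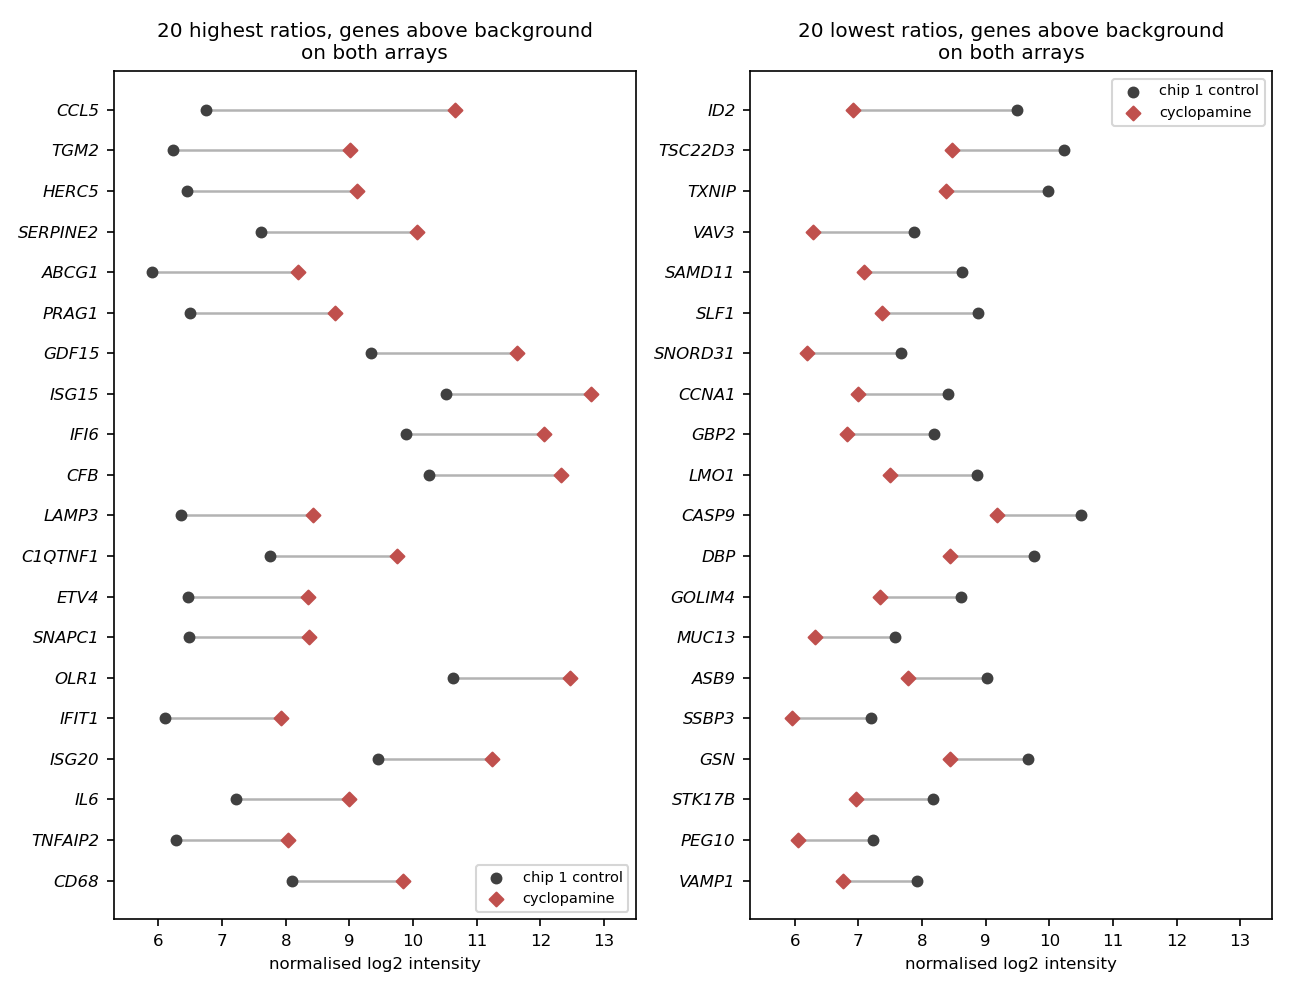
Normalised log2 intensity in the chip 1 control (circles) and with cyclopamine (diamonds), 1 array each, for the 20 genes with the highest (left) and the 20 with the lowest (right) log2 ratio among genes above background on both arrays. CCL5 spans the widest distance on the left, from 6.75 to 10.67, and ID2 on the right, from 9.49 to 6.91.

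Interferon-stimulated genes, the antiviral programme that STAT and IRF9 complexes switch on after interferon binds its receptor, formed another group of higher genes. Of 39 testable members, 34 had ratios above 0, and the median was 0.56. On the higher side 19 reached 1.5-fold and on the lower side 1, against 9.80% and 7.82% of all genes. IFI27, a mitochondrial and nuclear protein used as a marker of interferon exposure, had an intensity of 90.7 in the control, below background, and 1003 with cyclopamine, at least 18.9-fold higher. The ISG15 system, which attaches a ubiquitin-like protein to targets, was represented by ISG15 itself, from 10.52 to 12.79, its ligase HERC5, from 6.44 to 9.11, HERC6 with 0.93, the conjugating enzyme UBE2L6 with 0.49, and the deconjugating protease USP18 with 0.07. All 5 ratios were above 0, but USP18 lay within the spread of 1 probe. Among effectors, IFI6 went from 9.88 to 12.07, IFIT1, which binds foreign RNA ends, from 6.10 to 7.92, and ISG20, an exonuclease, from 9.45 to 11.24. OASL was at least 2.76-fold higher, OAS3 had 1.44 and OAS1, an enzyme that makes the activator of RNase L, 1.42 with up to 2.67 at other probes. The exception was GBP2, a guanylate-binding GTPase induced mainly by interferon gamma, which went from 8.19 to 6.81, 2.59-fold lower. Of the factors, IRF9 had 1.13, IRF7 1.07 with 0.69 at its other probe, IRF1 0.50, IRF3 0.25 and STAT3 -0.15.

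Receptors of foreign nucleic acid were mostly below background, and 3 of 15 could be tested. IFIH1, the RNA sensor MDA5, was at least 2.24-fold higher, CGAS, the DNA sensor, had a log2 ratio of 1.25, and TLR3 was above background in the control only, with a bound of 1.00-fold. Of the adaptors, IRAK2 had a log2 ratio of 1.18 and STING1 0.18. Antigen presentation had small ratios. Of 18 testable genes 15 had ratios above 0, yet only TAPBP and TAP1, which load peptides onto MHC class I, reached 1.5-fold, both with 0.59 (other probes of TAPBP went down to -0.25), and none on the lower side. The list's median was 0.29, and it shrank to 0.04 with median scaling and 0.02 in the deposited log2 table, where the median of all genes was -0.25 and -0.19. The class I genes HLA-B, HLA-G and HLA-E, whose sequences are alike, had 0.52, 0.44 and 0.37. HLA-DMA, of class II, had -0.45.

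The promoters of ISG15 and IFIT1 are shown because each holds overlapping or neighbouring copies of the interferon-stimulated response element core, GAAANNGAAA, in capitals in the 250 bases before the start (RefSeq, GRCh38.p14).
ISG15, chr1:1013247-1013496, plus strand: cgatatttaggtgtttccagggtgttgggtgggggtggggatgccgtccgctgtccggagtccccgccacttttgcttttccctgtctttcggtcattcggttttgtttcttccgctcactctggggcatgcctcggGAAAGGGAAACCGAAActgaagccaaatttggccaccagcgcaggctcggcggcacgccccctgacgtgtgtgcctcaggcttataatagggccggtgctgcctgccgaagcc
IFIT1, chr10:89392373-89392622, plus strand: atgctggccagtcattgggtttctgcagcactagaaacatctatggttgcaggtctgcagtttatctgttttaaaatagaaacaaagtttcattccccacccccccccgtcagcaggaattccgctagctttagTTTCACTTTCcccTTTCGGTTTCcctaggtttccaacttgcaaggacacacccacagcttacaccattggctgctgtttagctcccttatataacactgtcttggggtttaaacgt
This core was found on either strand in 3.02% of 35116 promoters. Of the 12 entries among the 20 highest genes, 6 held it (HERC5, ISG15, IFI6, CFB, IFIT1 and ISG20), and of the 10 among the genes with the highest bounds only IFI27 did. It was in 0 of 17 entries of the 20 lowest genes.

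Genes that growth factor signalling through the kinase ERK induces, and that in turn restrain it, were also higher. Of 24 testable MAPK feedback genes, 13 reached 1.5-fold on the higher side (12 by the bounds) and 1 on the lower. Over all genes the shares were 9.80% and 7.82%. The median of the list was 0.72, or 0.43 over the 20 above background on both arrays. Among ETS factors, ETV5 was at least 5.58-fold higher and ETV4 went from 6.46 to 8.35, whereas ETS2 had 0.31 and ETS1 -0.13. The Sprouty family members that block RAS signalling included SPRED2, at least 2.63-fold higher, SPRY2 with 0.69 and SPRY1 with 0.02. The MAPK phosphatases, which remove phosphate from ERK and its relatives, split by member. DUSP4 was at least 1.96-fold higher and DUSP5 had 0.88, while DUSP2, a nuclear phosphatase of immune cells, went from 8.68 to 7.59, and DUSP1, DUSP14 and DUSP16 had 0.09, -0.33 and -0.37. CCND1, the cyclin that carries growth signals into the cell cycle, went from 7.80 to 9.31, and PHLDA1 from 8.45 to 9.46. Of 9 tested AP-1 factors 4 were at least 1.5-fold higher: JUN (1.26), JUNB (1.21), FOSL1 (0.98) and MAFF (0.85), while ATF3 had -0.15. The zinc finger and nuclear receptor factors of the same early response had a median of 0.10, with 0 of 9 past 1.5-fold on the higher side and NR4A3 at least 1.39-fold lower. Over both kinds the median of 0.13 turned to -0.06 under median scaling and for the deposited log2 values. All genes had lower medians there, -0.25 and -0.19. TMEM158, a membrane protein named for its induction by oncogenic RAS, was at least 4.83-fold higher.

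The medians of these lists depended on the scale and the filter, and stayed above 0. For the deposited log2 values they were 0.36 for chemokines, 0.37 for cytokines, 0.35 for NF-kB, 0.28 for interferon-stimulated genes, 0.28 for MAPK feedback and 0.23 for acute phase and complement genes. With no detection filter they were 0.03, 0.27, 0.46, 0.34, 0.31 and 0.09 in the same order.

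Adhesion and matrix genes were higher in part. Of 20 tested integrin and focal adhesion genes, 18 were above 0. At 1.5-fold 5 were higher and 0 lower, against 9.80% and 7.82% of all genes. The list's median of 0.23 turned to -0.02 under median scaling and -0.04 for the deposited log2 table. All genes had medians of -0.25 and -0.19 there, and the list's median stayed above that of all genes in all 11 settings. ITGA2, the collagen-binding alpha chain, went from 6.01 to 7.57, and ITGA3 and ITGA5 had 0.94 and 0.65, while ITGB1, their common partner, had 0.02. Of the scaffold proteins ACTN1, an actin crosslinker, had 0.74. SERPINE2, an inhibitor of thrombin and other serine proteases, went from 7.61 to 10.06, 5.49-fold higher. Laminin chains LAMA5 and LAMB3 had 0.81 and 0.79, and collagens COL16A1 and COL7A1 0.79 and 0.75. In the other direction the membrane protease ADAM9 was at least 1.92-fold lower, TNC, the matrix protein tenascin C, at least 1.61-fold, and COL15A1, a basement membrane collagen, at least 2.66-fold. Targets of YAP and TEAD, the effectors of the Hippo pathway, divided in the same way. NT5E, the ectoenzyme CD73, was at least 4.12-fold higher, ANKRD1 at least 1.97-fold and AJUBA at least 1.96-fold. The most used reporters CCN1 and CCN2, however, had 0.14 and 0.28. The median of these targets, 0.15, turned to -0.14 with median scaling and -0.15 in the deposited log2 table. Each was still above the median of all genes there.

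Other genes with high ratios belonged to none of these groups. TGM2, the tissue transglutaminase that crosslinks proteins, went from 6.23 to 9.02, 6.92-fold higher, but its 3 detected probes ranged from -0.18 to 2.79. CD68 was likewise uneven, from 8.10 to 9.85 at 1 probe and -0.15 at another. GDF15, a secreted stress cytokine of the TGF-beta family, went from 9.34 to 11.63. ABCG1, which exports cholesterol and is a target of the oxysterol receptor LXR, went from 5.90 to 8.19, with 1.88 at its second probe. It was the member of the LXR list with a ratio past 2-fold. The LXR targets MYLIP and SREBF1 had 0.68 and 0.60, and SMPDL3A -0.67. PRAG1, a pseudokinase scaffold, went from 6.49 to 8.78, LAMP3, a lysosomal membrane protein of mature dendritic cells, from 6.36 to 8.42 (0.76 at its other probe), and C1QTNF1, a secreted C1q family protein, from 7.76 to 9.74. OLR1, a scavenger receptor for oxidised low density lipoprotein, went from 10.62 to 12.46 and SNAPC1, a subunit of the complex that transcribes small nuclear RNA genes, from 6.48 to 8.36.

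**Figure D3:**
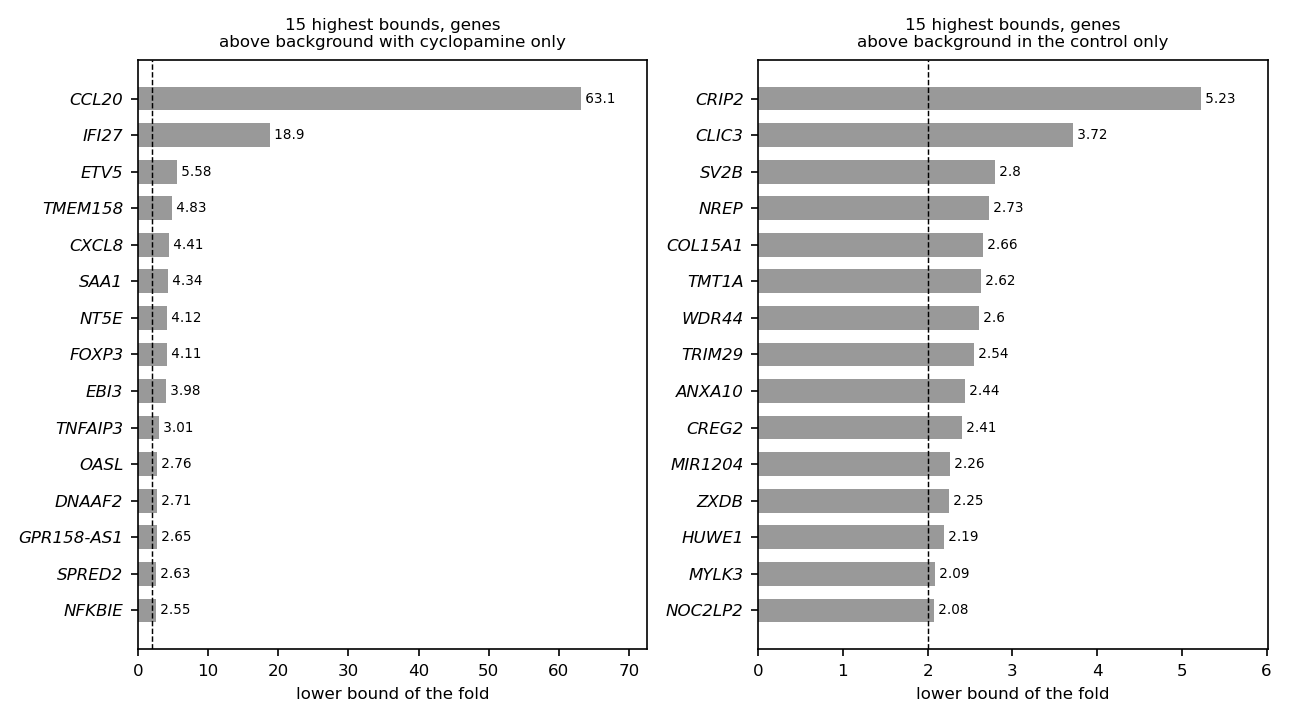
Lower bound of the fold for the 15 genes with the highest bounds among those above background with cyclopamine only (left, higher with cyclopamine) and in the control only (right, lower with cyclopamine). Bars start at 0, the dashed line marks 2-fold, and the axes of the panels differ: CCL20 stands at 63.1 on the left, and CRIP2 at 5.23 on the right.

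Of the genes first seen above background with cyclopamine, 15 were named by their bounds, and most were described above. FOXP3, the transcription factor of regulatory T cells, was at least 4.11-fold higher, DNAAF2, an assembly factor of ciliary dynein, at least 2.71-fold, and GPR158-AS1, an antisense RNA, at least 2.65-fold. Genes above background in the control alone had smaller bounds. CRIP2, a LIM domain protein, had an intensity of 364 in the control and 101 with cyclopamine, at least 5.23-fold lower, and CLIC3, a chloride channel family protein, 265 and 108, at least 3.72-fold lower. SV2B, a synaptic vesicle protein, was at least 2.80-fold lower, NREP at least 2.73-fold, and TMT1A, a thiol methyltransferase, at least 2.62-fold. WDR44 and TRIM29, a tripartite motif protein of squamous epithelia, had bounds of 2.60-fold and 2.54-fold, and their other probes gave -0.75 and -0.91. ANXA10, an annexin of the stomach lining, was at least 2.44-fold lower, CREG2 at least 2.41-fold, MIR1204, a microRNA host transcript, at least 2.26-fold and ZXDB, a zinc finger protein, at least 2.25-fold. HUWE1, a large ubiquitin ligase, MYLK3, the cardiac myosin light chain kinase, and the pseudogene NOC2LP2 had bounds of 2.19-fold, 2.09-fold and 2.08-fold.

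Stress programmes were uneven. Of 21 tested heat shock chaperones 4 were at least 2-fold higher, against 3.10% of all genes. They were the inducible HSPA1A and HSPA1B with 1.73 and 1.64, HSPA6, at least 2.19-fold higher, and the co-chaperone DNAJB1, with 1.01. The probes of HSPA1A and HSPA1B may bind either transcript, which was not checked. Other chaperones had ratios below 0: HSP90AA1 had -0.26, HSPD1 -0.33 and HSPB8, a small heat shock protein, -0.89, and the list's median was 0.02 (under median scaling -0.25, from the deposited log2 table -0.21). In the endoplasmic reticulum 11 of 13 chaperones had ratios below 0, with a median of -0.34, and DNAJC3, MANF and HSP90B1 lay past 1.5-fold on the lower side, DNAJC3 with levels of 7.38 and 6.39 and the others with -0.62 and -0.60, while HSPA5, the main chaperone there, had 0.12. The ATF4 pathway, which answers amino acid shortage, had TRIB3 at 1.12, STC2 at 0.95 and PPP1R15A at 0.84, whereas DDIT3, the factor CHOP, went from 10.22 to 9.17. Hypoxia-inducible genes included ANKRD37 (1.64), ADM, a vasodilator peptide (1.40), NDRG1 (1.23) and BHLHE40 (1.10), and among glucose genes the transporter SLC2A1 (1.13) and the regulator PFKFB4 (1.11). The enzymes that carry glycolysis stayed near 0, as LDHA (-0.24), PKM (-0.15) and PGK1 (0.15) show. The median of the list, 0.15, turned to -0.11 and -0.12 in those 2 scalings, where all genes had -0.25 and -0.19. NRF2 targets, which protect against oxidants, had ratios below 0 in 32 of 43 genes. By fitted ratio 2 lay past 1.5-fold on the higher side (1 by the bounds) and 3 on the lower. Both are smaller shares than the 9.80% and 7.82% of all genes. The higher ones were ABCC3, an organic anion exporter, with 1.22, and AKR1C2, whose probe may also bind close relatives, with a bound of 1.14-fold. The lower ones were ABCC2 with -0.71, GSR with -0.68 and GSTM1 with -0.60.

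Metallothioneins, small proteins that hold zinc and copper, were higher while part of the zinc transporters were lower. MT2A went from 12.72 to 14.19, MT1X from 11.24 to 12.43, MT1G from 6.79 to 8.39, and MT1E had 0.54. These 4 of 9 genes with a probe could be tested, and their probes may bind relatives. SLC30A1, the exporter of the plasma membrane, went from 9.92 to 8.77 (-0.46 at its other probe), and the importers SLC39A6 and SLC39A10 had -0.88 and -0.83, while SLC39A3 had 0.62. The MT2A promoter is shown because it is rich in the core of the metal response element, TGCNCNC, which the zinc-sensing factor MTF1 binds.
MT2A, chr16:56608334-56608583, plus strand: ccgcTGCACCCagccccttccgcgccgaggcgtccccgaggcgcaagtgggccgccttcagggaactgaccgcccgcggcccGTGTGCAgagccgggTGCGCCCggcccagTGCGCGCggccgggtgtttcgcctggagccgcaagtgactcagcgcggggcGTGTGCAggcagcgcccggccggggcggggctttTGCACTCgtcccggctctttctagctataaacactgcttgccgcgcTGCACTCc
Capitals mark 7 matches on either strand in the 250 bases before the start (RefSeq, GRCh38.p14). At least 1 match was in 49.1% of 35116 promoters and 3 or more in 5.85%, and MT1X held 4.

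On the lower side ID2 had the lowest ratio of the genes above background on both arrays. ID2, which blocks helix-loop-helix factors by pairing with them, went from 9.49 to 6.91, 5.97-fold lower, with -2.77 at its second probe. It is a classical target of bone morphogenetic protein signalling through SMAD factors, and all 5 tested genes of that group had ratios below 0, 3 of them past 1.5-fold, and the median was -0.78. ID3 went from 12.59 to 11.56 and ID1 from 10.99 to 10.21 (-0.39 at its other probe), while BAMBI and SMAD6 had -0.38 and -0.19. The ligands and receptors of the pathway were closer to the control: BMP6 and BMP2 had 0.35 and 0.24, and SMAD5 and SMAD4 -0.47 and -0.05. SMAD3, a factor of the TGF-beta branch, had 0.70, and the TGF-beta targets were divided, with TGFBI at 0.56, PMEPA1 at 0.48 and SKI at least 1.52-fold lower.

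TSC22D3, a leucine zipper protein that glucocorticoids induce, went from 10.23 to 8.48, and its 3 probes ranged from -2.29 to -0.48. Of 11 tested glucocorticoid-responsive genes 4 lay past 1.5-fold on the lower side (3 by the bounds) and 1 on the higher. Over all genes the shares were 7.82% and 9.80%. KLF9, a zinc finger factor, went from 10.08 to 9.33 and FKBP5, a co-chaperone of the receptor, had -0.38, but DUSP1 had 0.09, and NR3C1, the receptor, was above background in the control only. The median of -0.32 became -0.04 with bounds. TXNIP, an arrestin that binds thioredoxin and limits glucose uptake, went from 9.98 to 8.38, 3.03-fold lower, and it also belongs to the FOXO targets, of which SESN1 was at least 1.52-fold lower, CCNG2 had -0.58 and CDKN1B -0.57. The other arrestins did not share the difference, as ARRDC2, ARRDC3 and ARRB1 had 0.29, -0.12 and 0.09. The TXNIP promoter is shown because its glucose-responsive element has a form that few promoters hold.
TXNIP, chr1:145996580-145996829, minus strand: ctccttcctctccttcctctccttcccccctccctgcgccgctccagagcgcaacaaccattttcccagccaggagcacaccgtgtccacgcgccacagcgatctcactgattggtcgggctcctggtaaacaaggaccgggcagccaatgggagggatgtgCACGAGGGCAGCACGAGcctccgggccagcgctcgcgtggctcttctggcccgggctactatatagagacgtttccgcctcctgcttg
Capitals mark the 1 match to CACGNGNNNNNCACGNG in the 250 bases before the start (RefSeq, GRCh38.p14), a pattern found on either strand in 16 of 35116 promoters.

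The remaining genes at the low end had varied roles. VAV3 went from 7.88 to 6.29 (-0.90 at its other probe), SAMD11 from 8.63 to 7.09, and SLF1, a localisation factor of the SMC5 and SMC6 repair complex, from 8.88 to 7.38. CCNA1, the germline cyclin A, went from 8.41 to 6.99, and LMO1, a LIM domain cofactor, from 8.87 to 7.50. CASP9, the initiator caspase of the mitochondrial death pathway, went from 10.51 to 9.18 with -1.29 at its other probe, and APAF1, the scaffold that activates it, had -0.96. Other apoptosis genes were higher, BID, which links death receptors to mitochondria, with 1.12, FADD, the adaptor of those receptors, with 1.07, and the inflammatory caspases CASP4 and CASP1 with 0.99 and 0.86. DBP, a transcription factor driven by the circadian clock, went from 9.76 to 8.44. GSN, which severs actin filaments, went from 9.67 to 8.44 and GOLIM4, a Golgi membrane protein, from 8.61 to 7.34. MUC13, a membrane mucin and one of the few colonic markers present, went from 7.57 to 6.31, and TSPAN8 from 8.21 to 7.46. ASB9, a substrate adaptor of a ubiquitin ligase, had a log2 ratio of -1.24, with -1.89 at another probe, SSBP3, which binds single-stranded DNA, -1.23, the kinase STK17B -1.20, PEG10, an imprinted gene derived from a retrotransposon, -1.18, and VAMP1, a vesicle fusion protein, -1.17.

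Ratios of the named genes were set beside each other over 11 settings, the reported one included, and none changed sign. Settings that alter only the detection rule leave a gene's ratio as reported, so they are no repeat of it. Genes seen on 1 array are not tested under detection on both arrays, yet their fitted ratios were counted there. Of the 20 highest genes 16 stayed past 2-fold in every setting, ABCG1, CD68, IFIT1 and SNAPC1 being the exceptions, and ABCG1 went down to 0.60. Of the 20 lowest 13 did. The exceptions were GSN, MUC13, PEG10, SLF1, SSBP3, STK17B and VAMP1, of which PEG10 and VAMP1 passed in 7 settings and shrank to -0.45 and -0.36. By fitted ratio, 12 of the 15 genes seen with cyclopamine only (all but DNAAF2, GPR158-AS1 and NFKBIE) and 4 of the 15 seen in the control only stayed past 2-fold throughout.

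Genes of cell division were lower as a broad, shallow shift. Of 76 tested mitosis genes 70 had ratios below 0, and the median was -0.35. Past 1.5-fold lay 14 on the lower side (13 by the bounds) and 0 on the higher, against 7.82% and 9.80% of all genes. By role the medians were -0.42 for kinetochore and checkpoint genes (14 tested), -0.37 for spindle genes and kinesins (23), -0.29 for kinases (11), -0.29 for cyclins, CDK1 and its phosphatases (12) and -0.24 for cohesion and exit (16). PBK, a mitotic kinase, went from 8.89 to 7.86 and CCNA2, the S phase and mitotic cyclin A, from 10.63 to 9.71. KIF18A, a kinesin that dampens chromosome movement, was at least 1.37-fold lower, SMC2, a condensin subunit, had -0.90, DLGAP5 -0.84 and NDC80, the microtubule anchor of the kinetochore, -0.78. The master regulators were less apart, with CCNB1 at -0.29, PLK1 at -0.16 and AURKA at -0.33. Replication genes were mixed, with 29 of 42 below 0. By fitted ratio 2 lay past 1.5-fold on the lower side, a smaller share than the 7.82% of all genes. They were PRIM2, a primase subunit, with a bound of only 1.12-fold, and RRM2, a subunit of ribonucleotide reductase, with -0.59. Among inhibitors of cyclin-dependent kinases CDKN1A had 0.74, CDKN2D levels of 8.36 and 7.36, CDKN3 a log2 ratio of -0.70, CDKN1B -0.57 and CDKN1C -0.51.

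Genes of respiration were likewise mostly below 0. Of 68 tested genes of oxidative phosphorylation 59 had ratios below 0, and the median was -0.26, against -0.009 over all genes. Past 1.5-fold lay 4 on the lower side (2 by the bounds) and 1 on the higher. Both are smaller shares than the 7.82% and 9.80% of all genes, so the lower median came with fewer calls in both directions. All 15 subunits of complex V, the ATP synthase, were below 0 (median -0.29), as were 25 of 32 in complex I (-0.21), all 3 in complex II (-0.21), 7 of 8 in complex III (-0.30) and 9 of 10 in complex IV (-0.27). UQCRB of complex III went from 10.45 to 9.63, ATP5MC3 was at least 1.12-fold lower, and UQCR11 was the member at least 1.5-fold higher, with 0.74. Most values lay within 2 SD of the spread of 1 probe, so single members are not separated from the control. In the citric acid cycle 13 of 17 genes were below 0, and ACO1, the cytosolic aconitase, had 0.64. Reference genes, which are commonly taken as constant, had a median of -0.15, with ACTB at -0.24 and GAPDH at -0.07. With median scaling the medians of mitosis and oxidative phosphorylation were -0.66 and -0.54, and in the deposited log2 table -0.55 and -0.52, each below the median of all genes there.

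Small nucleolar RNAs, which guide the modification of ribosomal RNA, had a median below 0. Of 278 genes with a probe 80 could be tested, 19 of them in the control only and 2 with cyclopamine only, against 591 and 401 of all 8999 genes. By fitted ratio 24 lay past 1.5-fold on the lower side and 3 on the higher, and by the bounds 12 and 2. Over all genes the shares by fitted ratio were 7.82% and 9.80%. SNORD31 went from 7.67 to 6.19 and SNORD65 from 8.22 to 7.08. SNORA26 was at least 1.68-fold lower. The median was -0.29, or -0.19 with bounds. The Y RNA gene RNY4 went the other way, from 7.81 to 8.86. SNHG12, a host transcript of such RNAs, was at least 1.89-fold lower, SNHG7, another host, had 0.74, and HOTAIR, a transcript of the HOXC cluster, had -0.87.

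**Figure D4:**
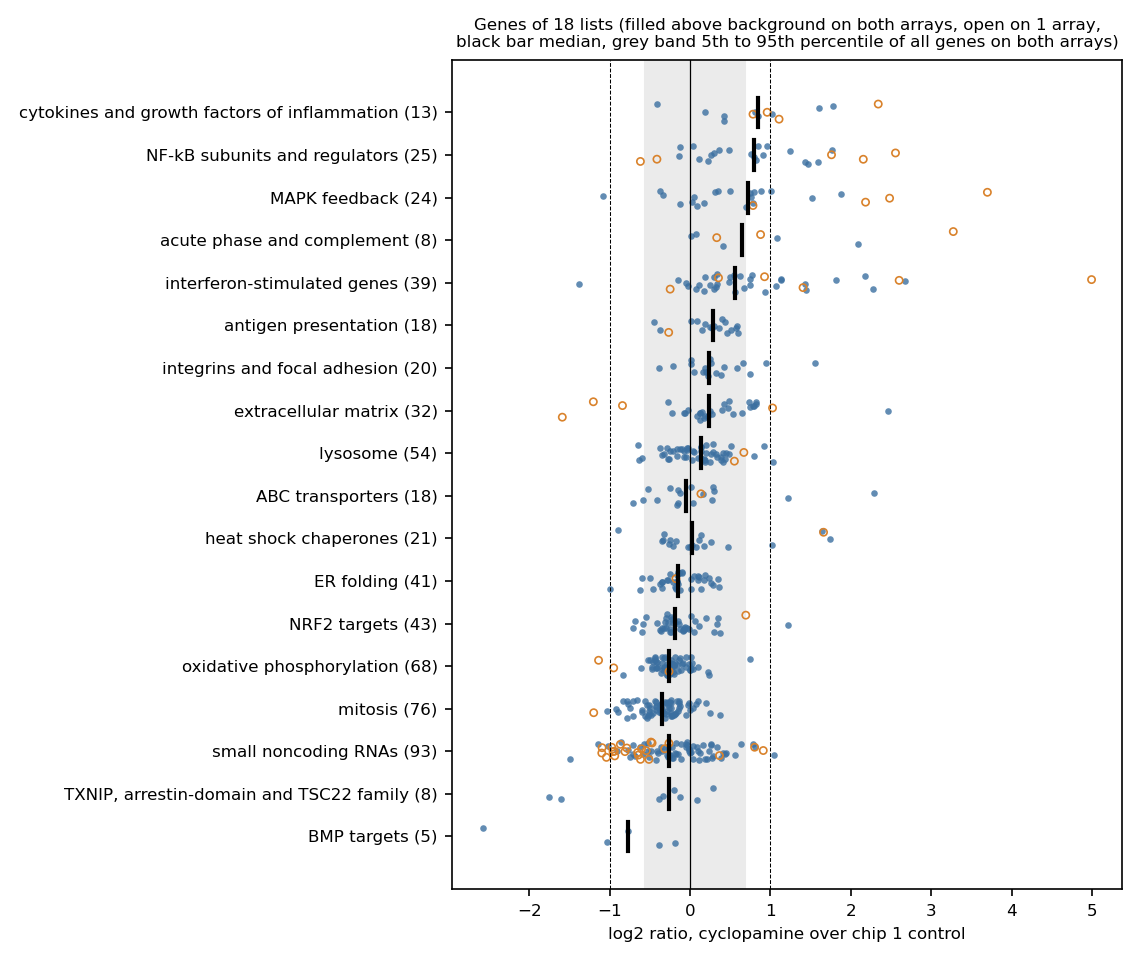
Log2 ratio of cyclopamine over the chip 1 control for the tested genes of 18 lists, with the number tested in brackets. Filled points were above background on both arrays and open points on 1 array only (fitted ratio, not a bound), black bars are medians, the grey band spans -0.56 to 0.68 (5th to 95th percentile of all genes above background on both arrays) and dashed lines mark 2-fold. Medians of the inflammatory, MAPK feedback and interferon lists lie to the right, those of mitosis, oxidative phosphorylation and BMP targets to the left.

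The receptors and factors that cyclopamine acts through had little signal. SMO, PTCH1 and GLI1 were below background on both arrays. Of 23 genes of the primary cilium with a probe 14 could be tested, 7 with ratios above 0 and 7 below, and 2 were at least 1.5-fold lower by the fitted ratio and 0 by the bounds: ARL6, a small GTPase of cargo transport, with a bound of 1.07-fold, and IFT80, a transport subunit, with 1.22-fold. KIF3B, a ciliary motor, had -0.42 and TTC8 0.37. DHH, a ligand, was at least 1.86-fold higher, and the 1 tested receptor or co-receptor had 0.43. SPOP and CSNK1A1, which process GLI proteins, had -0.47 and -0.26. Of the 5 tested genes of signal transduction, however, 3 had ratios above 0, and the median was 0.08. Of 27 reported GLI target genes 10 could be tested, all on both arrays, with 5 ratios above 0, 5 below and a median of -0.02. At 1.5-fold 2 of the 10 were higher and 1 lower, against 9.80% and 7.82% of all genes. The highest ratio was that of CCND1, the cyclin described with the MAPK feedback genes, at 1.52. VEGFA, the vascular growth factor, had 0.70 and JAG2, a Notch ligand, 0.49, while FOXF1, a factor of gut mesenchyme, had -0.59 and FOXM1, of dividing cells, -0.35.

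GANT61 over its own control on chip 2 was set beside these values. No array is shared, but the cultures of the chips differed in the markers given above, so a difference between compounds cannot be told apart from one between cultures. Of 8176 genes tested in both comparisons, cyclopamine had 198 past 2-fold on the higher side and 116 on the lower, and 280 (3.42%) were higher and 113 (1.38%) lower with GANT61. Higher in both were 41 genes, which is 20.7% of the cyclopamine genes and 14.6% of the GANT61 genes. Lower in both by the fitted ratios were 5, DNAJC22, HMGB3, SSBP3, LFNG and SESN1. Of these only SSBP3 was above background on both arrays of chip 1. The bounds with cyclopamine were 1.16-fold for DNAJC22, 1.35-fold for LFNG and 1.52-fold for SESN1. For HMGB3 the bound was 0.95-fold, so no lower level is shown. Across the 8176 genes, which are not independent replicates, Pearson's r between the log2 ratios was 0.23. Among the genes with high values in both, CCL20 was below background in both controls and above it in both treated cultures, and CXCL8 was at least 4.41-fold higher with cyclopamine and had a log2 ratio of 3.90 with GANT61. SERPINE2 had 2.46 and 2.74, GDF15 2.29 and 2.27, ISG15 2.27 and 1.22, and ADM 1.40 and 1.54. IL6, SAA1, EBI3, TNFAIP3 and ICAM1, all higher with cyclopamine, were below background on both arrays of chip 2. CCL5 differed in sign, with 3.91 and -0.48, and ETV4 had 1.88 and -0.22. Past 2-fold in opposite directions by fitted ratio were MT1X (1.19 and -1.56) and DDIT3 (-1.05 and 2.66). So were ROR1, an orphan receptor kinase (only at least 1.39-fold higher by the bound, and -1.25), and ACSL1, a fatty acid ligase (at least 2.01-fold lower, and 2.17). NRF2 targets had medians of -0.19 with cyclopamine and 0.47 with GANT61, ER chaperones -0.34 and 0.82, and mitosis genes -0.35 and -0.66. BMP targets had -0.78 and -0.07.

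**Figure D5:**
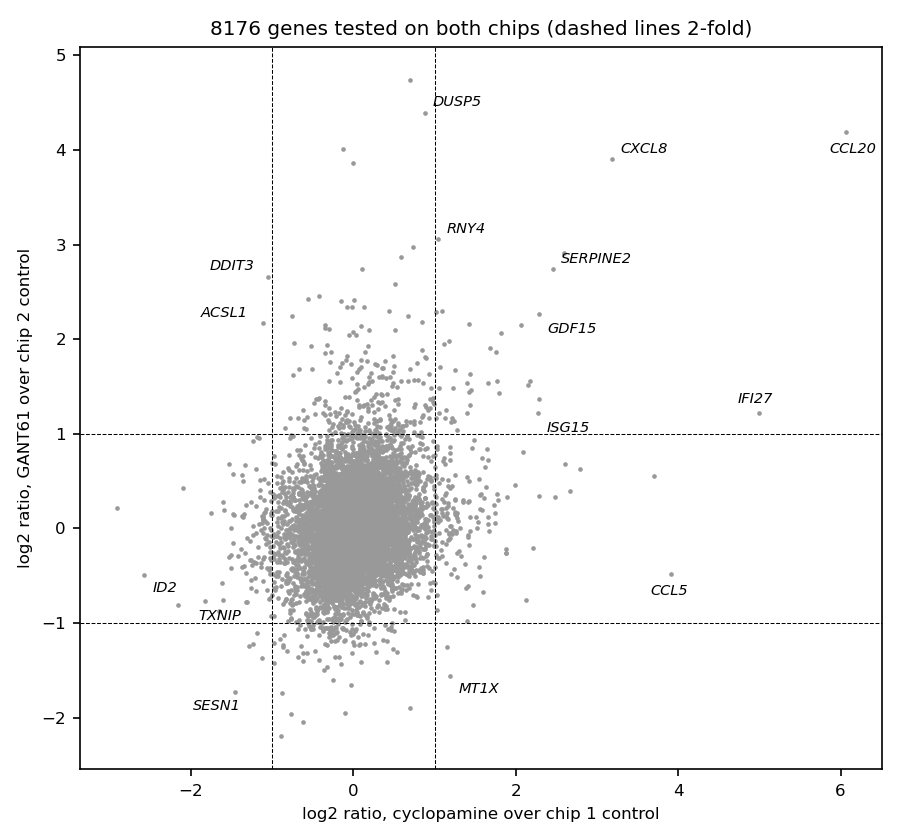
Fitted log2 ratio of cyclopamine over the chip 1 control (horizontal axis) against that of GANT61 over the chip 2 control (vertical axis) for 8176 genes tested in both comparisons, 1 array per group. Dashed lines mark 2-fold; CCL20, CXCL8, SERPINE2 and GDF15 lie at the upper right, MT1X at the lower right, and DDIT3 and ACSL1 at the upper left.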

How the data were processed

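Illumina Human HT BeadChip V4 arrays were hybridised with biotin-labelled cRNA from TRIzol-extracted RNA, per the labels' protocols. The authors deposited, per the file headers, summarised bead intensity and a detection p-value for each probe and array, and a series table of log2 intensity. Its values match log2 of the intensities to 5e-09, so it carries no further normalisation. The software behind the intensities is not given in the sources used here.

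Intensities of the 4 arrays were background corrected from the detection p-values, given an offset of 16 and quantile normalised (neqc, limma 3.58.1, R 4.3.3). The normalisation was tested on simulated data with known folds at bright probes, where noise also took unchanged probes above background past 2-fold. Tables were handled with pandas 2.3.3 in Python 3.11.15. Of 47227 probes, 30111 had 1 symbol in the platform annotation, 8 had several and 17108 none; 30072 were updated by Entrez identifier against RefSeq (GRCh38.p14). A gene was taken as its probe with the highest mean level over the 4 arrays. Where 1 array was below background, a bound used the probe's own level there or the lowest detected level of that array (5.84 for the control, 5.94 for cyclopamine), whichever was higher, and the fold is written as at least N-fold. Precision is limited by the single array per group.

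Named genes were the 20 highest and 20 lowest ratios on both arrays, the 15 highest bounds in each direction, up to 6 members of a list with the largest values and members standing for a role, and, for cell type markers, the 4 brightest members and defining members below background. The comparison, the lists and this rule were chosen with earlier results of these data known. Probe positions and sequences were not used. Alternatives changed the normalisation, background correction, offset, detection rule and choice of probe.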

Additional observations from a re-analysis of the deposited data

How the results depend on the processing

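Of 10 other settings, 4 kept both counts of genes at least 2-fold apart within 1.5 times of 279 higher and 172 lower: detection p under 0.05, no detection filter, the mean of all probes and the brightest probe on chip 1. Normalising the arrays of chip 1 alone left 93 lower (218 higher), median scaling 125 higher (235 lower), no background correction 111 and 31, an offset of 50 left 122 and 39, and detection on both arrays 130 and 41. The deposited log2 values gave 61 higher and 76 lower. Median scaling put the median of all genes at -0.25 (-0.19 for the deposited log2 values) and the share of calls on the higher side at 34.7% (44.5%), against 61.9% as reported. Detection on both arrays leaves fewer genes by construction, and for the other settings the cause was not tested. Among list medians 503 stayed near the reported value and 97 moved, and among ratios of named genes 470 and 230. The 470 include ratios that a change of the detection rule leaves as reported by construction. No paired analysis was possible because each group has 1 array. Ratios rest on weak signal near the detection floor (5.84 and 5.94), as for ABCG1 at 5.90 in the control.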

Other observations

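Replication-dependent histone genes, which supply nucleosomes in S phase, had a median below 0. Of 40 tested genes 26 had log2 ratios below 0. The filter passed 5 through the control array alone and 1 through the cyclopamine array alone. Past 1.5-fold by fitted ratio lay 9 on the lower side (5 by the bounds) and 2 on the higher. Over all genes the shares were 7.82% and 9.80%. The median was -0.21 (-0.16 with bounds), and -0.16 over the 34 genes above background on both arrays. Reference genes had a median of -0.15. H3C8 had -1.05, whereas H2BC18 had 0.97 and H2BC8 0.68, and their sequences are too alike for probes to be assigned with certainty. Of 7 tested spliceosomal U RNA genes 6 had ratios above 0, with a median of 0.33. RNU1-3 had 0.80 and RNU4-2 0.57, while RNU4ATAC, of the minor spliceosome, was at least 1.38-fold lower.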
